A study of Mus musculus with 4 samples.

Results

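Treg-marked T cell barcodes were chosen by a rule on transcript counts from single cells of tumours formed by MC38, a transplanted mouse colon carcinoma line. Tumours came from untreated wild-type mice and from untreated FOXP3 humanized mice, all 10 weeks old, on day 20. Which part of the FOXP3 gene is humanized, and how many mice or tumours went into a library, is not given. Cells were enriched on Percoll as tumour-infiltrating immune cells, and each genotype had 1 cDNA library, so no difference between genotypes has a replicate check and genotype cannot be told apart from library or mouse.

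A barcode entered the class if it had fewer than 5000 unique molecular identifiers (UMIs, 1 per captured transcript) and at least 2 UMIs over 6 CD3 and T cell receptor constant genes. It also had to have no UMI of Trdc, the constant gene of the gamma-delta receptor, and a UMI of at least 2 of 8 genes typical of regulatory T cells. The 8 genes were Foxp3, Il2ra, Ikzf2, Tnfrsf4, Tnfrsf9, Icos, Klrg1 and Izumo1r. This gave 48 of 7691 barcodes in the wild-type library and 63 of 11087 in the humanized library, 111 of 18778 in all. The comparison classes were the other alpha-beta T barcodes, which met the T cell conditions but had fewer than 2 of the 8 markers (33 wild-type and 67 humanized), and Trdc-positive T barcodes (15 and 26).

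Regulatory T (Treg) cells are CD4 T cells that restrain other immune cells. The transcription factor FOXP3 defines the lineage and holds its expression programme in place. Treg cells consume interleukin 2 through the high-affinity receptor that contains CD25, strip costimulatory ligands from antigen-presenting cells through CTLA-4, and inside tumours often carry an activated effector programme with high TNF receptor family members and ICOS.

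The whole libraries held 134214718 wild-type and 147738781 humanized UMIs, with medians of 15368 and 11575 per barcode. Most barcodes carried few leukocyte transcripts. Deep barcodes without any CD3 UMI, defined by at least 5000 UMIs, therefore serve as the background for transcripts of T cells. A further 31 wild-type and 74 humanized barcodes had at least 2 CD3 UMIs but 5000 UMIs or more and were left out by the rule. Levels are UMIs summed over the barcodes of a class and scaled to 1000000 UMIs (CPM). All intervals are 95% intervals and cover counting error only. They are exact, except that of the ratio of shares between libraries, which is a large-sample approximation.

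Treg-marked barcodes were shallow. Their UMIs ran from 1008 to 3785 with a median of 1679.5 in the wild-type library, and from 1018 to 4173 with a median of 1638 in the humanized library. The median number of genes was 920.5 and 932. Depth was thus nearly equal between genotypes, and summed over barcodes the class held 88017 wild-type and 117182 humanized UMIs. CD3 and receptor UMIs, which the rule used, had a median of 11 per wild-type and 7 per humanized barcode.

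That the barcodes are T cells was checked with genes that the rule did not use. Transcripts of 17 pan-T and leukocyte genes made up 11805 CPM (11098 to 12545) in wild-type and 9097 CPM (8559 to 9660) in humanized Treg-marked barcodes, against 132 and 137 CPM in deep CD3-free barcodes. Cd4, the co-receptor of Treg cells, had 17 UMIs in 14 wild-type and 28 UMIs in 19 humanized barcodes. Cd8a had 0 UMIs in both libraries, and Cd8b1 had 2 in 1 wild-type barcode. Ptprc, the leukocyte gene CD45, had a UMI in 64.6% of wild-type and 39.7% of humanized members, against 0.121% and 0.282% of deep CD3-free barcodes. The barcodes therefore carried T cell transcripts with Cd4 and nearly without Cd8. These genes do not separate the class from the other alpha-beta T barcodes, which held 11003 and 9018 CPM of the 17 genes, a Ptprc UMI in 51.5% and 56.7% of barcodes, and Cd4 in 5 wild-type and 15 humanized barcodes. The name Treg-marked stands for the rule, not for a cell type shown by protein.

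Transcripts of other cells were also counted. A set of 50 genes high in the deep CD3-free barcodes made up a median of 1.17% of UMIs in wild-type and 0.969% in humanized members, against 5.31% and 5.72% in the deep barcodes. Macrophage markers had 20 and 7 UMIs, mostly Spp1, with 0 of C1qa, Lyz2 and Csf1r. Markers of tumour and epithelial cells had 106 and 151 UMIs, mostly of the metallothionein genes Mt1 and Mt2. The B cell list had 16 UMIs in each library, and the dendritic cell list had 25 and 21, mostly Cd74. NK cell markers had 7 wild-type and 54 humanized UMIs, 51 of the latter in 1 barcode. Fibroblast markers had 9 and 55 UMIs, of which Sparc gave 8 and 40. Markers of group 2 innate lymphoid cells had 52 UMIs in 14 wild-type and 52 in 22 humanized members, against 8 and 8 in other alpha-beta T barcodes. Areg, described below as a Treg gene, is on that list and gave 48 and 21 of these, and in the humanized library Il1rl1 had 6 and Il5 3. Markers of gamma-delta T17 cells had 15 and 365 UMIs, the latter 3115 CPM and mostly Il17a. Transcripts of other cell types were thus present in both libraries, and their part in the results was not tested.

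Among the rule genes, the costimulatory receptors were the most often seen, which describes how the members were chosen and is no finding. Tnfrsf4, which encodes OX40, had a UMI in 42 of 48 wild-type and 42 of 63 humanized barcodes. Icos was seen in 39 and 47, and Tnfrsf9, which encodes 4-1BB, in 32 and 39. Ikzf2, which encodes the transcription factor Helios, was seen in 21 and 35 barcodes. Il2ra, the CD25 chain, was seen in 10 and 19, Izumo1r, a folate receptor family member of Treg cells, in 14 and 12, and Klrg1, a mark of terminal effector cells, in 11 and 4. The class was therefore held together mainly by activation receptors, and 33 wild-type and 49 humanized members had at least 1 of Foxp3, Il2ra, Ikzf2 and Izumo1r.

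Members differed in how many of the 8 markers they carried. Exactly 2 markers were seen in 13 wild-type and 26 humanized members, and 6 markers in 3 and 5 members. The wild-type library had 3 members with 7 and 2 members with 8 markers, and the humanized library had 0 with 7 or 8. Just outside the rule, 22 wild-type and 34 humanized T barcodes had exactly 1 marker. Ctla4, which the rule did not use, stood at 1178 CPM in wild-type members with exactly 2 markers and at 303 CPM in barcodes with 1 marker. In the humanized library these values were 489 and 369 CPM. The limit on UMIs left out 4 wild-type and 13 humanized barcodes that had at least 5000 but fewer than 10000 UMIs and met the other conditions, and their median share of the 50 background genes was higher, at 3.11% and 4.07%.

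**Figure D1:**
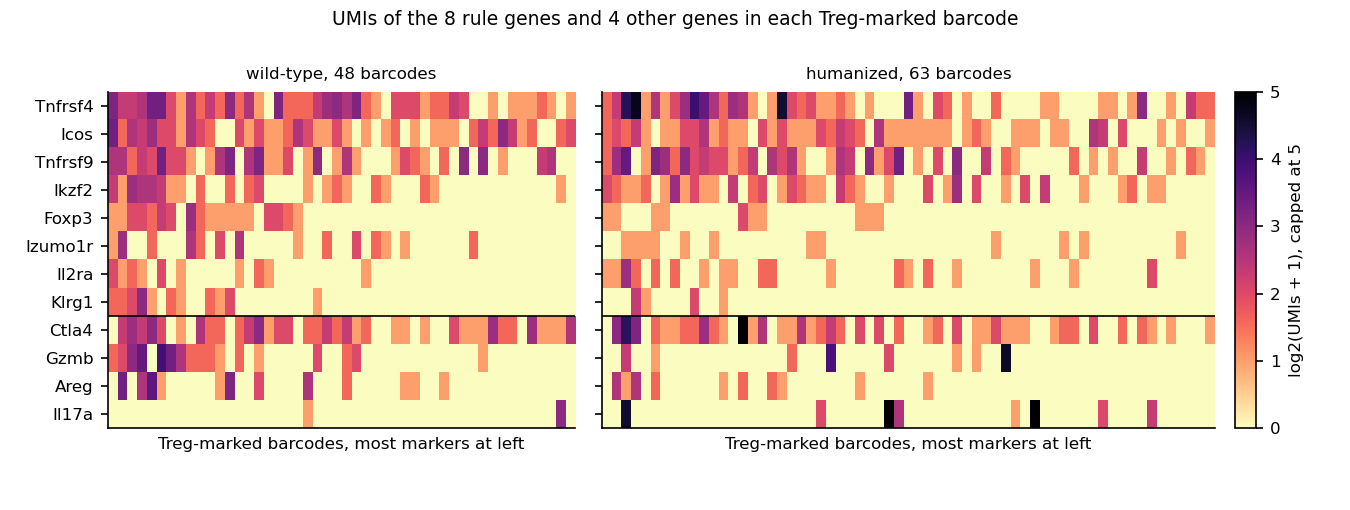
UMIs of the 8 rule genes (above the line) and of Ctla4, Gzmb, Areg and Il17a (below it) in each of 48 wild-type and 63 humanized Treg-marked barcodes, as log2(UMIs + 1), with barcodes ordered by number of markers. Foxp3 fills 18 wild-type and 10 humanized columns, and Il17a fills 2 and 8 columns that have no Foxp3.

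Treg-marked barcodes made up 50% (39.6 to 60.4) of wild-type and 40.4% (32.6 to 48.5) of humanized T barcodes. The log2 ratio of the shares, humanized over wild-type, was -0.31 (-0.71 to 0.091). Of alpha-beta T barcodes alone they made up 59.3% (47.8 to 70.1) and 48.5% (39.6 to 57.4), and of all barcodes 0.624% (0.461 to 0.827) and 0.568% (0.437 to 0.726). A lower share in the humanized library was not detectable at this number of barcodes, since the interval of the ratio includes 0, and that interval does not show that the shares were alike.

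Foxp3 itself was lower in the humanized library. It had 39 UMIs in 18 wild-type barcodes and 12 UMIs in 10 humanized barcodes. The highest barcode had 6 and 3 UMIs, and at least 2 UMIs were seen in 10 wild-type barcodes and 1 humanized barcode. The level was 443 CPM (315 to 606) against 102 CPM (52.9 to 179), a log2 ratio of -2.11 (-3.18 to -1.15). Both genotypes thus had Foxp3 transcripts in this class. The other alpha-beta T and the Trdc-positive T barcodes held 0 Foxp3 UMIs in both libraries, although the rule would have let a barcode with Foxp3 as its only marker into them. A floor of 3 counts corresponds to 45.7 wild-type and 25.8 humanized CPM in other alpha-beta T barcodes. The exact interval of 0 UMIs there reaches 56.1 and 31.7 CPM. Deep CD3-free barcodes stood at 0.15 and 0.174 CPM.

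Foxp3 is 1 of the 8 markers, but leaving it out of the rule returned the same 48 and 63 barcodes, so Foxp3 decided no membership. The share of members with a Foxp3 UMI was 37.5% (24.0 to 52.6) in the wild-type and 15.9% (7.88 to 27.3) in the humanized library. With every barcode thinned to 1000 UMIs these shares were 29.2% (14 of 48) and 12.7% (8 of 63). How reads of the humanized allele were aligned and counted is not given, so a lower transcript level and a lower capture of that allele's reads cannot be told apart. Members with exactly 2 markers, 13 wild-type and 26 humanized, held 0 Foxp3 UMIs in both libraries. The part of this mix of members in the lower Foxp3 was not tested.

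The other rule genes did not move as one. Ikzf2 stood at 545 CPM (402 to 723) in wild-type and 631 CPM (496 to 793) in humanized members, a log2 ratio of 0.21 (-0.33 to 0.77). The ratio was -0.07 (-0.39 to 0.25) for Tnfrsf4, -0.17 (-0.54 to 0.20) for Tnfrsf9 and 0.63 (-0.27 to 1.59) for Il2ra. Izumo1r was lower, with 36 wild-type and 12 humanized UMIs, 409 against 102 CPM, and an interval of the log2 ratio from -3.08 to -1.02. Klrg1 was lower as well, with 25 and 9 UMIs and a ratio of -1.89 (-3.17 to -0.74), and Icos had a ratio of -0.61 (-1.03 to -0.19). Icos was also lower in humanized other alpha-beta T barcodes, at -1.04. Unlike Foxp3, these 7 genes may have decided membership, so their values describe the members chosen and show no difference between genotypes.

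The first comparison asked what else marked these barcodes against the other alpha-beta T barcodes. Outside the rule, 717 genes reached 30 UMIs in each library. Of these, 15 were higher by 2-fold or more in both libraries (2.09%) and 2 were lower by 2-fold or more in both (0.279%). This is a rule of size and not a test. The 2 lower genes were Klf2 and Gramd2b. With each gene's top barcode left out, 11 of the 15 and 0 of the 2 still passed.

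Ctla4 was the clearest of the Treg genes. Its UMIs per barcode had a median of 2 and a highest value of 7 in the wild-type library, and a median of 1 and a highest value of 33 in the humanized library. Its level was 1182 CPM (965 to 1432) and 1203 CPM (1013 to 1419) in members, against 335 and 283 CPM in other alpha-beta T barcodes, 233 and 137 CPM in Trdc-positive T barcodes and 54.3 and 75.8 CPM in deep CD3-free barcodes. The log2 ratio to other alpha-beta T barcodes was 1.82 (1.15 to 2.55) and 2.09 (1.53 to 2.68). Between genotypes it differed by 0.03 (-0.35 to 0.41) in members, and by -0.36 with the 33 UMIs of the top humanized barcode left out. That interval covers counting error only and not the weight of single barcodes.

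Tnfrsf18, which encodes the costimulatory receptor GITR, had 72 wild-type UMIs in 32 members and 79 humanized UMIs in 31. Its levels of 818 and 674 CPM compared with 304 and 155 CPM in the other alpha-beta T barcodes, log2 ratios of 1.43 (0.70 to 2.22) and 2.12 (1.37 to 2.95). Cd2, an adhesion receptor of T cells, had ratios of 1.26 (0.73 to 1.82) and 1.03 (0.44 to 1.64). Samsn1, an adaptor protein gene, had ratios of 1.32 and 1.99, and Itgav, the integrin alpha V chain that takes part in activating TGF-beta, 1.28 and 3.24. Each of these 4 genes was thus higher in members of both libraries, but for Cd2 the humanized ratio was 0.91 without the barcode with most of its UMIs.

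Gzmb, the protease granzyme B, separated the classes in the wild-type library. It had 69 UMIs in 17 wild-type members and 0 in the 33 other alpha-beta T barcodes, which with a floor of 3 counts over the class is a log2 ratio of at least 4.10, and the exact interval starts at 3.76. In the humanized library 49 UMIs in 8 members compared with 17 UMIs in 5 other barcodes, a ratio of 1.52 (0.70 to 2.41). Of these 49 UMIs 24 were in 1 barcode and 13 in another, and without the first the ratio was 0.58. Trdc-positive T barcodes also held Gzmb, at 366 and 432 CPM. Gzmb was thus high in this class among wild-type alpha-beta T barcodes, rested on few barcodes in the humanized library and was not confined to the class among T barcodes.

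Of the other 9 higher genes, Odc1, Glrx, Tpi1 and Hilpda have roles in metabolism. Odc1, the rate-limiting enzyme of polyamine synthesis, stood at 1659 and 1468 CPM in members, with log2 ratios of 1.34 (0.84 to 1.87) and 1.44 (1.02 to 1.88). Glrx, the redox enzyme glutaredoxin, had ratios of 2.65 (1.31 to 4.34) and 2.53 (1.14 to 4.25). The glycolytic enzyme gene Tpi1 had ratios of 1.22 and 1.23, and Hilpda, a lipid droplet protein induced by hypoxia, 1.21 and 1.87. Without the barcode with most of their UMIs, Hilpda stood at 0.89 and Sdf4 at 0.98 in the wild-type library. Background matters for these, since deep CD3-free barcodes held 1031 and 1200 CPM of Tpi1 and 125 and 112 CPM of Odc1. The remaining genes were Sdf4 (1.08 and 2.21), Rilpl2 (1.73 and 1.58), Fam169b (1.90 and 1.41), Ubl3 (1.99 and 1.34) and Syngr2 (1.63 and 1.21), all log2 ratios in the wild-type and then the humanized library.

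Klf2, a transcription factor that keeps T cells in circulation, was lower in members. It stood at 352 and 503 CPM against 776 and 1864 CPM in other alpha-beta T barcodes, log2 ratios of -1.14 (-1.83 to -0.47) and -1.89 (-2.33 to -1.47). Deep CD3-free barcodes held Klf2 themselves, at 410 and 399 CPM, with a UMI in 93.5% and 89.8% of them. The part of such transcripts in the level of members was not tested. Gramd2b had ratios of -1.49 and -1.14. Without the other alpha-beta T barcode with most of its UMIs, Klf2 stood at -0.98 in the wild-type library and Gramd2b at -0.99 in the humanized library, so neither passed 2-fold in both.

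**Figure D2:**
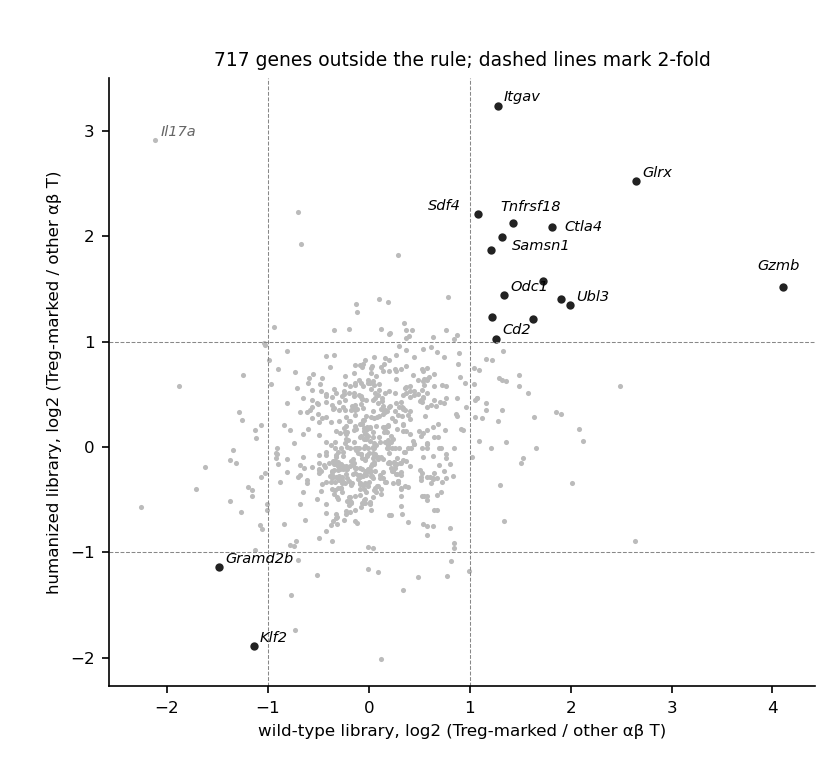
Log2 ratio of the level in Treg-marked over other alpha-beta T barcodes in the wild-type library (horizontal) and in the humanized library (vertical) for 717 genes. Black points are the 15 higher and 2 lower genes that passed 2-fold in both, the wild-type Gzmb value of 4.10 is set against 3 counts, since other alpha-beta T barcodes had 0, and Il17a lies at -2.12 and 2.91.

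**Figure D3:**
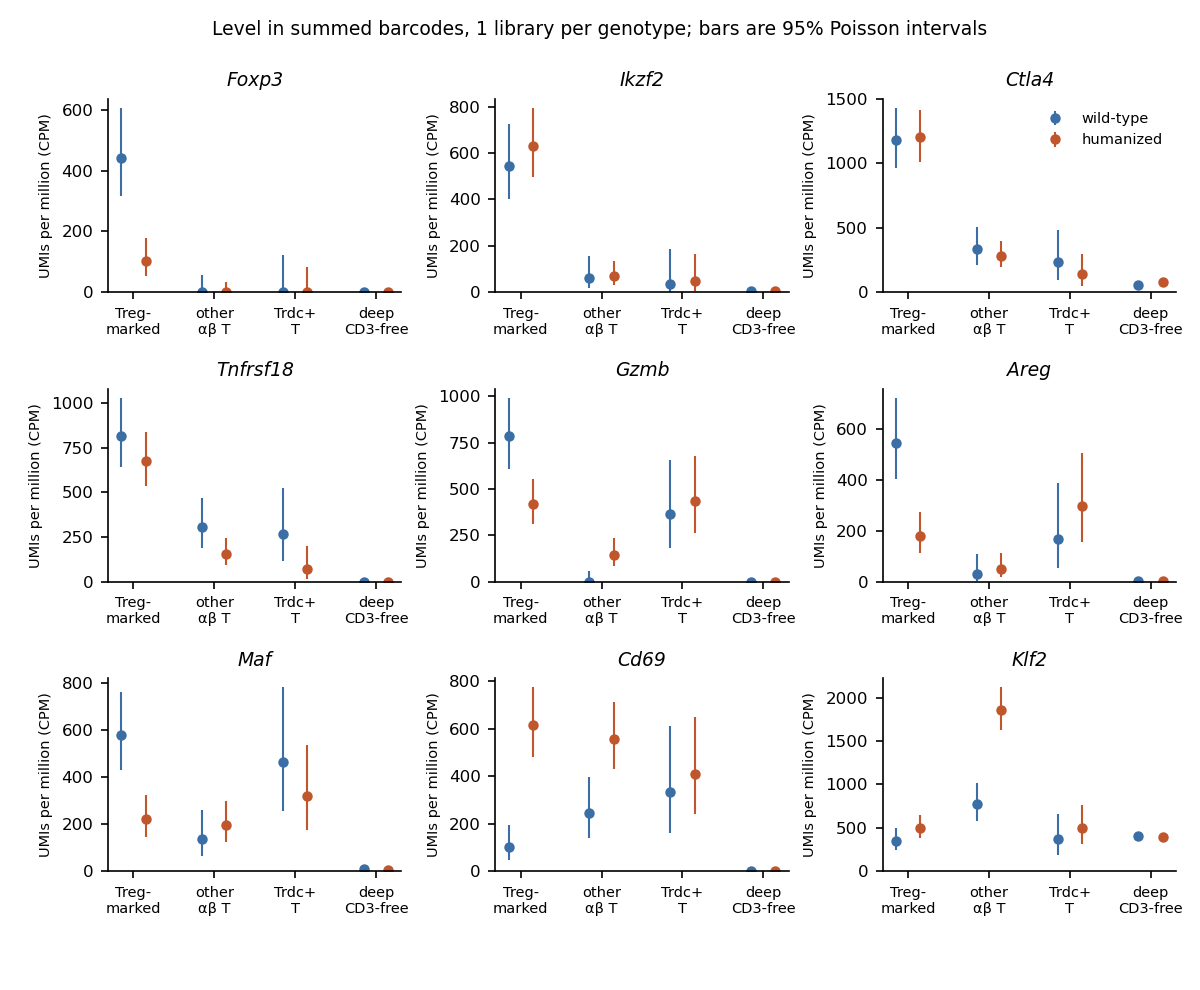
Level in CPM of 9 genes in Treg-marked, other alpha-beta T, Trdc-positive T and deep CD3-free barcodes of the wild-type (blue) and humanized (orange) library, with 95% Poisson intervals. Foxp3 is above 0 among T barcodes only in the Treg-marked class, Ctla4 is near 1200 CPM there in both libraries, and Maf and Areg are higher in the wild-type than in the humanized Treg-marked class.

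Gene lists of Treg biology were read with a lower minimum of 20 UMIs in each library. Over all 1120 genes so measured, 26 passed 2-fold on the higher side in both libraries (2.32%) and 4 on the lower side (0.357%), with a median log2 ratio of 0.04. Of 6 measured genes of Treg identity outside the rule, 3 were higher (Ctla4, Tnfrsf18 and Tnfrsf1b, the TNF receptor TNFR2), with a median of 1.20, while Capg, Il2rb and Rgs1 did not pass. Of 8 measured TNF receptor and costimulation genes 3 were higher, and Cd28, Cd82, Traf1, Cd5 and Cd6 did not pass. Of 6 measured suppressive mediators, 4 were higher (Gzmb, Ctla4, Areg and Penk), with a median of 2.38. Of 19 measured effector genes of tumour Treg cells, 8 were higher, with a median of 0.76. These lists share Gzmb, Areg, Penk and other genes, so their counts overlap.

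Areg, which encodes the tissue repair factor amphiregulin, had 48 UMIs in 12 wild-type and 21 UMIs in 10 humanized members, against 2 and 6 UMIs in other alpha-beta T barcodes. Trdc-positive T barcodes held 166 and 296 CPM of Areg, against 545 and 179 CPM in members, so in the humanized library they were higher. Penk, the proenkephalin precursor, was confined to few cells, with 22 UMIs in 3 wild-type and 42 UMIs in 6 humanized members, and 30 of the latter in 1 barcode. Il10, a suppressive cytokine, had 13 UMIs in 8 wild-type and 4 UMIs in 3 humanized members, and 0 in other alpha-beta T barcodes of both libraries. Ccr8, a receptor often used to mark tumour Treg cells, had 0 wild-type and 1 humanized UMI and was not detectable at this depth.

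Lists of general activation held no gene past 2-fold in both libraries. Of 11 measured genes of T cell receptor activation 0 were at least 2-fold higher or lower in both, with a median of -0.13, and of 12 immediate early genes 0 were, with a median of -0.52. In the wild-type library alone 5 of the 12 immediate early genes were lower in members (Fos, Jun, Ier2, Zfp36 and Btg2) and 0 higher. Over all genes measured in that library, 73 of 1184 were lower and 101 higher. In the humanized library 0 of 13 immediate early genes passed in either direction, and over all 1704 genes 71 were lower and 150 higher. Fos was lower in wild-type members, at a log2 ratio of -2.25 (-2.87 to -1.68), and stood at -0.57 (-0.97 to -0.18) in the humanized library. Of 5 measured NF-kappa-B genes and 10 interferon genes, 0 passed in either direction. Of 11 measured genes of resting T cells, 2 were lower, Klf2 and Tcf7, the latter encoding TCF1 of naive and memory cells, with 5 wild-type and 6 humanized UMIs in members against 20 and 34. Of 11 glycolysis and hypoxia genes, Tpi1 and Hilpda were higher, and of 41 genes of oxidative phosphorylation 0 passed.

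The second comparison asked how Treg-marked barcodes of humanized mice differed from those of wild-type mice. There were 553 genes with 50 UMIs or more, both libraries summed. In the humanized library 6 of them were higher by 2-fold or more (1.08%) and 8 lower (1.45%), also with the top barcode of each gene left out. Without that condition on the top barcode the counts were 15 and 16. Among the 8 lower genes 1 was a predicted gene, Gm10076. With 1 library each, these are differences between 2 libraries.

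Cd69, an early activation receptor that keeps T cells in tissue, was higher in humanized members. It had 9 UMIs in 5 wild-type and 72 UMIs in 34 humanized members, 102 against 614 CPM, a log2 ratio of 2.59 (1.58 to 3.77). In other alpha-beta T barcodes it was higher as well, with 16 and 65 UMIs and a ratio of 1.20. Deep CD3-free barcodes were near 0, at 0.0552 and 0.21 CPM. Trdc-positive T barcodes had 10 and 18 UMIs and a ratio of 0.30 (-0.89 to 1.58), an interval that shows no direction. The difference was therefore seen in both alpha-beta classes, and whether it was larger in the Treg-marked class was not tested.

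Furin, a protease that processes the TGF-beta precursor, had 14 wild-type and 62 humanized UMIs and a log2 ratio of 1.73 (0.88 to 2.69), against -0.34 in other alpha-beta T barcodes. Without its top barcode, a wild-type one, the ratio was 2.54. Nme2, a nucleoside diphosphate kinase, had 46 and 135 UMIs and a ratio of 1.14 (0.65 to 1.66), against -0.15. Deep CD3-free barcodes held 2056 and 2168 CPM of Nme2, which is above the level in members, and its close relative Nme1 may share its reads. Sh2d2a, a T cell adaptor gene, had 13 and 41 UMIs and a ratio of 1.24 (0.32 to 2.27), against -0.32. For these 3 genes the humanized library was higher in the Treg-marked class. In the other class each interval included 0, at -1.22 to 0.57 for Furin, -0.58 to 0.29 for Nme2 and -1.22 to 0.61 for Sh2d2a.

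The 2 cytokine genes of the higher group rested on few barcodes. Ifng, the type 1 cytokine interferon gamma, had 3 UMIs in 2 wild-type and 97 UMIs in 7 humanized members, with 70.0% of all its UMIs in 1 barcode, and in other alpha-beta T barcodes it had 5 and 147 UMIs. Il17a, which encodes interleukin 17A, had 8 UMIs in 2 wild-type and 318 UMIs in 8 humanized members, a log2 ratio of 4.90 (3.90 to 6.12). Without the top barcode of each, the ratio was 3.11 for Il17a and 2.76 for Ifng. Of the 318 Il17a UMIs, 226 were in 1 barcode and 53 in another. No member with an Il17a UMI had a Foxp3 UMI in either library.

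The Il17a members were read against gamma-delta T17 markers, since such cells make interleukin 17 and the rule removed only barcodes with a Trdc UMI. The 8 markers of that list had 15 UMIs in 3 wild-type and 365 UMIs in 9 humanized members, and 0 of these members had a Foxp3 UMI. Scart1, a scavenger receptor gene of gamma-delta T17 cells, was seen in 0 of 2 and 3 of 8 members with Il17a, and Cd4 in 1 of each. Trdc-positive T barcodes held 1695 and 6760 CPM of Il17a, against 90.9 and 2714 CPM in Treg-marked barcodes. What share of these members are gamma-delta T cells was not tested, and Foxp3 without them stood at a log2 ratio of -1.95.

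On the lower side were Maf and Areg, both known from effector Treg cells. Maf, the transcription factor c-Maf that drives Il10, had 51 UMIs in 25 wild-type and 26 UMIs in 13 humanized members, a log2 ratio of -1.38 (-2.13 to -0.68), against 0.53 in other alpha-beta T barcodes. Areg had a ratio of -1.61 (-2.42 to -0.84), against 0.76 on 2 and 6 UMIs. Both were lower in humanized Treg-marked barcodes. In the other class the intervals ran from -0.64 to 1.82 for Maf and from -1.72 to 4.10 for Areg, so they show no direction. The difference between classes was not tested.

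The other named lower genes have broader roles. Cd2 had 125 and 76 UMIs and a log2 ratio of -1.13 (-1.56 to -0.71), and in other alpha-beta T barcodes -0.90. AW112010, a transcript of activated lymphocytes, stood at -1.14 (-1.58 to -0.71), the phosphatase gene Ptpn18 at -1.21 (-1.69 to -0.73), and the lipid phosphatase gene Inpp4b at -1.45 (-2.38 to -0.58). Cox7c, a subunit of cytochrome c oxidase, had 50 and 23 UMIs and a ratio of -1.53 (-2.31 to -0.79). Deep CD3-free barcodes also held less Cox7c in the humanized library, at 605 and 310 CPM, so this difference was not particular to T cells.

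Other effector genes did not reach 2-fold or the UMI minimum. Gzmb had 69 and 49 UMIs and a log2 ratio of -0.91 (-1.47 to -0.36), and -1.88 without the humanized barcode that held 24 of them. Il10 had 13 and 4 UMIs and a ratio of -2.11 (-4.19 to -0.42), Cd27, a costimulatory TNF receptor, 23 and 8 UMIs and -1.94 (-3.31 to -0.72), and Batf, a transcription factor of effector Treg cells, 27 and 15 UMIs and -1.26 (-2.28 to -0.30). Of the 17 pan-T and leukocyte genes 1 was lower (Cd2) and 0 higher, with a median ratio of -0.38, against -0.19 in other alpha-beta T barcodes. Ptprc had 50 and 40 UMIs, while Cd4 had 193 and 239 CPM. The part of these transcripts and of the lower CD3 UMIs in the lower Foxp3, Maf and Areg was not tested.

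**Figure D4:**
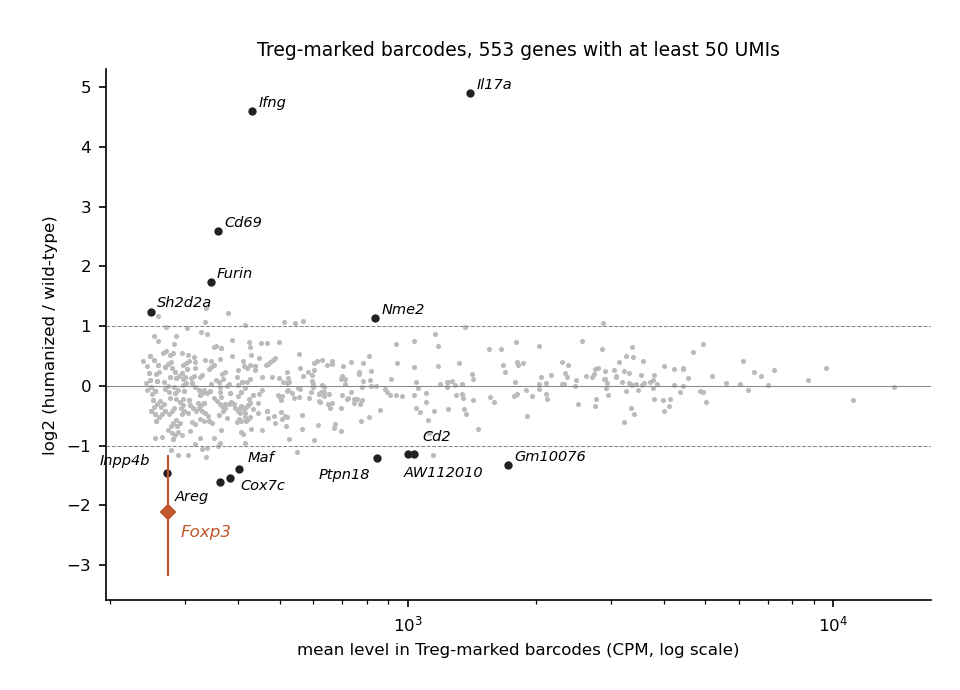
Log2 ratio of humanized over wild-type level in Treg-marked barcodes against the mean level in CPM (log axis) for 553 genes with at least 50 UMIs. Black points are the genes at least 2-fold apart also without their top barcode, and Foxp3, which has 51 UMIs and belongs to the rule, is drawn in orange at -2.11 with its 95% interval.

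Gene lists were read between genotypes at a minimum of 20 UMIs over both libraries. Of all 1602 genes in Treg-marked barcodes, 87 passed 2-fold on the higher side (5.43%) and 108 on the lower side (6.74%) in the humanized library, with a median log2 ratio of -0.06. In other alpha-beta T barcodes 51 of 1289 were higher (3.96%) and 92 lower (7.14%), with a median of -0.11. Of 7 measured genes of Treg identity outside the rule 0 passed in either direction, with a median of 0.03, so Ctla4, Tnfrsf18, Capg, Il2rb and Rgs1 were each within 2-fold in members, as were Tnfrsf1b and Nt5e.

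Of 24 measured effector genes of tumour Treg cells, 4 were higher (Cxcr6, Gata3, Il1r2 and Rgs16) and 5 lower (Batf, Maf, Cxcr3, Areg and Cst7), with a median of -0.08. Cxcr6, a chemokine receptor of tissue T cells, had 19 and 53 UMIs and a log2 ratio of 1.07 (0.29 to 1.91), against -0.93 in other alpha-beta T barcodes. Gata3 had 5 and 16 UMIs and a ratio of 1.27 (-0.25 to 3.07), an interval that includes 0. Genes of the list thus differed in both directions.

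Of 10 measured NF-kappa-B genes, 3 were higher (Nfkbia, Nfkbid and Icam1), with a median of 0.49, against 0 of 5 and a median of 0.07 in other alpha-beta T barcodes. Nfkbia, the inhibitor induced by NF-kappa-B itself, had 165 and 454 UMIs in members and a ratio of 1.05 (0.79 to 1.31), and 0.53 in the other class. Of 10 measured TGF-beta response genes, 4 were higher (Skil, Ldlrad4, Rgs16 and Pmepa1), with a median of 0.91, against 1 of 7 and a median of 0.06. These 4 had 5 to 13 wild-type and 15 to 35 humanized UMIs each, and the intervals of Skil, Rgs16 and Pmepa1 include 0, as do those of Nfkbid and Icam1. Tgfb1 itself had 5 and 17 UMIs. Of 12 immediate early genes Fos (1.08) and Jun (1.07) were higher, and of 8 heat shock genes 0 were, with a median of 0.41.

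Of 10 measured interferon response genes, 3 were lower (Isg20, Ifi27l2a and Bst2), with a median of -0.74, against 0 of 10 and -0.11 in other alpha-beta T barcodes. Ifi27l2a had 139 and 83 UMIs and a ratio of -1.16 (-1.57 to -0.75). Of 44 genes of oxidative phosphorylation 1 was higher and 5 lower, with a median of -0.33, against -0.24 in other alpha-beta T barcodes. Of 11 resting T cell genes 3 were higher and 1 lower (Cd27), with a median of 0.27. In other alpha-beta T barcodes 2 of 13 were higher and 0 lower, with a median of 0.46. The 3 higher genes in members included S1pr1, the exit receptor of T cells, with 0 wild-type and 20 humanized UMIs. Il7r was another, with 8 and 30 UMIs and a ratio of 1.49 (0.34 to 2.83). With a floor of 3 counts the S1pr1 ratio was at least 2.32, and the exact interval starts at 1.89. Of 13 measured genes of glycolysis and hypoxia 0 passed, with a median of 0.03.

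Members were last compared by whether they held a Foxp3 UMI, within each library. In the wild-type library the 18 members with Foxp3 held 1067 CPM of Maf (747 to 1477), against 276 CPM (155 to 456) in the 30 without. Gzmb stood at 1600 against 276 CPM, Areg at 1037 against 240 CPM, and Tnfrsf18 at 1274 against 534 CPM. Nkg7, a cytotoxic granule gene, went the other way, at 178 against 1106 CPM, and at 92.0 against 606 CPM without the top barcode on each side, which held 29 of the UMIs on the side without Foxp3. Areg without Foxp3 stood at 153 CPM without its top barcode. Wild-type barcodes with Foxp3 thus also carried the effector genes, with Maf in 16 and Gzmb in 11 of the 18.

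Further genes set the same wild-type barcodes apart. Klrg1 was seen in 9 of the 18 with Foxp3 and in 2 of the 30 without, and Gzmb was seen in 9 of the 11 members with Klrg1. Il10 was seen in 5 of the 18 and 3 of the 30, and Penk in 0 of the 18 and 3 of the 30. Ctla4 differed little, at 1363 CPM (998 to 1818) and 1069 CPM (812 to 1382). Since Klrg1 is a rule gene, its count is a description only.

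In the humanized library the 10 members with Foxp3 differed from the 53 without in partly the same and partly other genes. Ctla4 stood at 3338 CPM (2515 to 4345) against 854 CPM, with 33 of the UMIs in 1 barcode and 1637 CPM without it, and Areg at 607 CPM (291 to 1116) against 109 CPM (54.5 to 195). Cd69 was at 1396 against 487 CPM. Without the top barcode on each side, Cd69 stood at 913 against 446 CPM and Areg at 331 against 60.7 CPM. Maf, at 425 CPM (171 to 875) against 189 CPM (114 to 295), had overlapping intervals, and without the top barcode on each side its direction turned, at 74.4 against 161 CPM. Gzmb was at 60.7 CPM on 1 UMI against 477 CPM, or 245 CPM without the top barcode there, and Klrg1 and Il10 were seen in 0 of the 10. Tnfrsf18 stood at 783 against 570 CPM and Nkg7 at 65.9 against 247 CPM, both without the top barcode on each side. Areg, seen in 4 of the 10, Tnfrsf18 and Nkg7 thus kept the direction they had in the wild-type library. Gzmb did not, nor did Maf without the top barcode. For Nkg7 the humanized side with Foxp3 held only 1 UMI beside the 3 of its top barcode. Whether the humanized directions of Tnfrsf18 and Nkg7 exceed counting error was not tested. With 18 and 10 barcodes, and a Foxp3 UMI missed in many cells at this depth, members without a UMI are not cells without Foxp3.

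**Figure D5:**
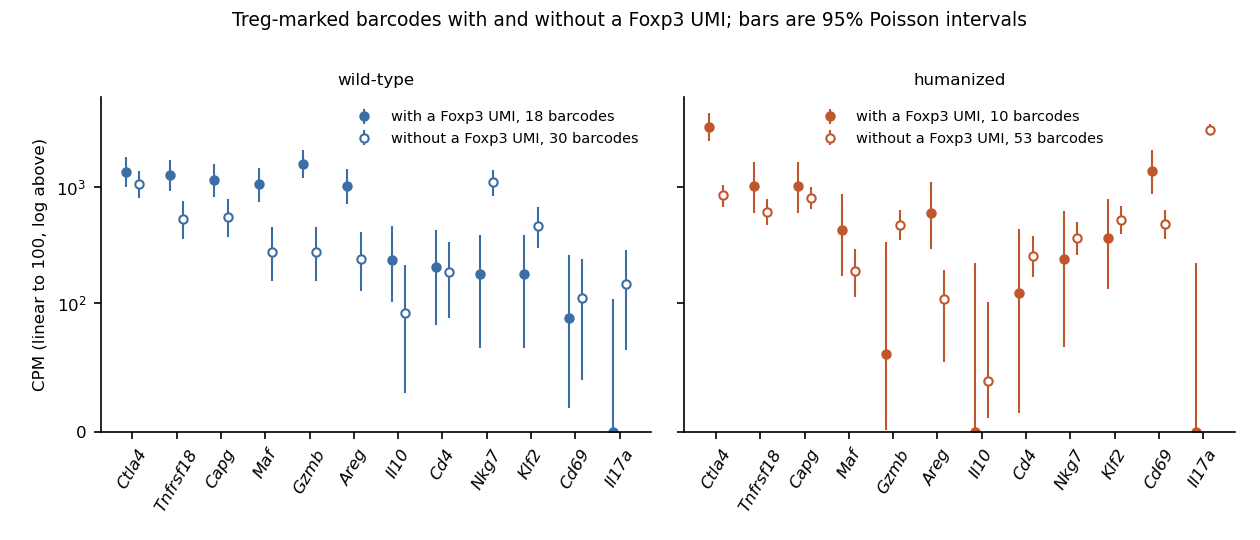
Level in CPM (linear to 100, log above) of 12 genes in Treg-marked barcodes with (filled) and without (open) a Foxp3 UMI, in the wild-type library (18 and 30 barcodes) and the humanized library (10 and 53), with 95% Poisson intervals. Maf, Gzmb and Areg are higher with Foxp3 in the wild-type library, and Areg and Ctla4 in the humanized library, where Il17a is seen only without Foxp3.

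Members with none of Foxp3, Il2ra, Ikzf2 and Izumo1r, 15 wild-type and 14 humanized barcodes, held less Maf, Gzmb and Areg than the other members. Maf stood at 146 CPM in them against 775 CPM in the other wild-type members, and at 0 against 282 CPM in the humanized library. Gzmb stood at 146 against 1072 CPM and at 0 against 532 CPM, and Areg at 73 against 759 CPM and at 0 against 228 CPM. Of the 49 UMIs behind the 532 CPM of Gzmb, 24 were in 1 barcode and 13 in another. The humanized intervals of Areg overlapped, at 0 to 147 and 141 to 349 CPM. Ctla4 was at 1131 against 1204 CPM in the wild-type and at 478 against 1401 CPM in the humanized library. The interval of the humanized 478 CPM (247 to 836) overlapped that of other alpha-beta T barcodes, at 283 CPM (195 to 398). Not every effector gene was low in them. Penk stood at 328 against 214 CPM in the wild-type library, on 9 UMIs in 1 barcode. In the humanized library Penk stood at 1395 against 76.0 CPM, with 30 of its 35 UMIs in 1 barcode. Tnfrsf18 stood at 657 against 891 CPM and at 598 against 695 CPM. The interval of the wild-type 657 CPM (389 to 1038) overlapped that of other alpha-beta T barcodes, at 304 CPM (186 to 470). Barcodes that entered on Tnfrsf4, Tnfrsf9, Icos or Klrg1 alone thus held Ctla4 and Tnfrsf18 UMIs in both libraries but little Maf, Gzmb or Areg. Their interval lay above that of other alpha-beta T barcodes for Ctla4 only in the wild-type and for Tnfrsf18 only in the humanized library. Some of these humanized barcodes had a share of the 50 background genes above the median of deep CD3-free barcodes. The part of such transcripts in these levels was not tested.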

How the data were processed

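Single cells of dissociated MC38 tumours were captured on a droplet platform, per the labels' protocols. The authors deposited raw counts of UMIs for each gene in each barcode, written with PISA v1.0 per the file headers, on build GRCm39 per the submitters' processing notes. For the aligner, the annotation and cell calling: not given in the sources used here. The oligo libraries were not used here. Barcode names are running numbers, so barcodes shared between libraries could not be counted. No further filter on cells was applied, and no doublet caller was run; the limit of 5000 UMIs sets deep barcodes aside.

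The members, gene lists and rules of size were chosen with earlier results of these data known. Counts were summed per class and library and scaled to CPM. Exact Poisson, Clopper-Pearson and conditional intervals (numpy 2.4.6, scipy 1.17.1, pandas 2.3.3) are at 95%, and cover counting error only, since barcodes of 1 library are not replicates. The interval of the ratio of shares is a Katz log interval, an approximation, also at 95%. A class at 0 was set to 3 counts in a ratio, and no ratio with an interval was formed with both classes at or under 3. The gene counts with no UMI minimum did not leave such genes out. Shares were also read after thinning each barcode to 1000 UMIs. With 1 library per genotype, there is no test between genotypes.

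Genes were named among those past 2-fold. Against other alpha-beta T barcodes they were ranked by the smaller ratio of both libraries, up to 20 higher and 15 lower. Between genotypes they were ranked by the interval bound nearest 0, up to 12 each way. Mitochondrial, ribosomal protein, predicted, receptor segment, immunoglobulin, haemoglobin and sex-linked genes were counted but not ranked. The rule genes, Ctla4 and members of the lists were reported beside them. The effect of other limits, marker rules and minimums is given in the closing section. No coordinates are given, because the annotation at hand is of another build.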

Additional observations from a re-analysis of the deposited data

Results flagged for a closer look

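Il17a went in opposite directions in the libraries. Its level in Treg-marked over other alpha-beta T barcodes had a log2 ratio of -2.12 (-3.48 to -0.94) in the wild-type library, on 8 and 26 UMIs, and of 2.91 (2.44 to 3.41) in the humanized library, on 318 and 42 UMIs. The difference between libraries was not tested, and 226 of the 318 humanized UMIs came from 1 barcode.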

How the results depend on the processing

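The lower share of Treg-marked barcodes in the humanized library ranged from -0.63 to -0.22 on the log2 scale over 10 alternatives, and the lower Foxp3 from -2.55 to -1.84 over 13. The counts of genes moved more. With 2 or more of Foxp3, Il2ra, Ikzf2 and Izumo1r as the rule, 9 genes were higher and 9 lower than in other alpha-beta T barcodes, and 1 was higher and 3 lower in the humanized library. With no UMI minimum these counts were 178, 214, 355 and 519, and with a minimum of 100 UMIs 3, 0, 3 and 4. An upper limit of 10000 UMIs gave 24 higher and 21 lower between genotypes, a limit of 3000 gave 5 lower, and counting genes that rest on 1 barcode gave 15 and 16. Thinning to 1000 UMIs before the rule gave 7 higher than in other alpha-beta T barcodes and 3 lower in the humanized library. Without barcodes rich in tumour transcripts 1 gene was lower than in other alpha-beta T barcodes and 5 were lower in the humanized library, and these were also 1 and 5 without barcodes with an Il17a UMI, an alternative chosen after seeing the data. Without each gene's top barcode, also chosen after seeing the data, 0 were lower than in other alpha-beta T barcodes. At least 3 of 8 markers gave 5 lower than in other alpha-beta T barcodes. Fewer or more genes or barcodes enter by construction, and the cause beyond that was not tested.

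Of 83 alternative values for these comparisons 58 were close to those reported. Of 360 values of 30 named gene results, 352 kept their direction and lay within the counting interval (for ratios to other alpha-beta T barcodes, the span of both libraries' intervals), 7 lay outside it, and 1 reversed. Only 14 of the 30 stayed past 2-fold in every alternative. Tpi1 did so in 6 of 12, and Cd2 between genotypes in 8 of 12. Il17a without barcodes with an Il17a UMI, and Ifng under the rule on 4 genes, gave no ratio and are among the 7. The reversed value was that of Rilpl2, whose mean log2 ratio to other alpha-beta T barcodes was -0.21 under the rule on Foxp3, Il2ra, Ikzf2 and Izumo1r. No paired analysis was possible because each genotype had 1 cDNA library. Depth limits genes under about 20 UMIs, such as Ccr8 and Il10.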
